A study of Saccharomyces cerevisiae with 4 samples.

Results

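The mating pheromone response of budding yeast (Saccharomyces cerevisiae) was followed through 10 genes: the G protein subunit genes GPA1, STE4 and STE18, the regulator gene SST2, the scaffold gene STE5, the kinase gene FUS3, the transcription factor gene STE12, and FAR1, FUS1 and AGA1, which act in cell cycle arrest, cell fusion and cell adhesion. They were picked by name from the 6720 gene rows of the deposited expression table, and all 10 had a row. Total RNA was sequenced from cells labelled wild type (WT) that grew at 30 °C in synthetic complete medium. The medium held 2% glucose in the non-restricted condition (NR) or 0.05% glucose in the calorie-restricted condition (CR), and the comparison asked which transcripts differed between the conditions. Each condition had 2 libraries, A and B, labelled as biological replicates. The sources used here do not give the strain background, mating type, ploidy, cell density or harvest time, so the growth state at harvest is unknown. No pheromone treatment is named, so the values are those of cultures without a stated pheromone stimulus.

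In a haploid cell, pheromone of the opposite mating type binds a receptor at the surface, and the receptor releases the Gα subunit Gpa1 from the Gβγ pair Ste4 and Ste18. Free Gβγ recruits the scaffold Ste5, on which a chain of kinases ends in the mitogen-activated protein kinase Fus3. Fus3 frees the transcription factor Ste12 from its repressors and phosphorylates Far1, and the cell stops dividing and turns on mating genes. Sst2 speeds the return of Gpa1 to its inactive state and so makes the cell less sensitive. Several of these genes are themselves targets of Ste12 and are induced by pheromone.

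Ste12 binds the pheromone response element, whose core was searched here as the letters TGAAACA on both strands in the 300 bases before the start codon. At least 1 copy was found for 5 of the 10 genes (STE18, FUS3, SST2, FUS1 and AGA1), against 432 of 6001 nuclear protein-coding genes of the RefSeq R64 annotation, or 7.20%. FUS3 and FUS1 held 2 copies each, and 22 of the 6001 genes (0.367%) held 2 or more. Targets of Ste12 were among the genes chosen, so these shares only describe the choice and are no test of it. No copy lay in this window for GPA1, STE4, STE5, STE12 or FAR1, which says only that these letters are not there. The 300 bases before the start codon of 4 genes are given 5′ to 3′ on the strand of the gene, from the R64 genome sequence. They show where the copies lie (in capitals, TGTTTCA being a copy on the other strand) in a pair of genes that fell in CR, AGA1 and SST2, and a pair that did not pass the test, FUS1 and FUS3. 
AGA1 (chrXIV:703399-703698, plus strand): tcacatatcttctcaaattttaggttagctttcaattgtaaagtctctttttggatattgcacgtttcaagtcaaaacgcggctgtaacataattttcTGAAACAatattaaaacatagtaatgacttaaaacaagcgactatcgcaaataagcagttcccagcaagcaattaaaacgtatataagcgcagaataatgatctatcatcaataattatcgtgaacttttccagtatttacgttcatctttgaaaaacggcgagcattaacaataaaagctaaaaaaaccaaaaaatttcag
SST2 (chrXII:1041367-1041666, minus strand): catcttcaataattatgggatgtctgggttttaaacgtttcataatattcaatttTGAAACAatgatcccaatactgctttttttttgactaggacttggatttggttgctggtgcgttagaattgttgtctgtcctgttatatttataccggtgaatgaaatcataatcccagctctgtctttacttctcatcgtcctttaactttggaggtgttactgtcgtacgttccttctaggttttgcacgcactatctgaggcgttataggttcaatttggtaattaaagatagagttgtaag
FUS1 (chrIII:71503-71802, plus strand): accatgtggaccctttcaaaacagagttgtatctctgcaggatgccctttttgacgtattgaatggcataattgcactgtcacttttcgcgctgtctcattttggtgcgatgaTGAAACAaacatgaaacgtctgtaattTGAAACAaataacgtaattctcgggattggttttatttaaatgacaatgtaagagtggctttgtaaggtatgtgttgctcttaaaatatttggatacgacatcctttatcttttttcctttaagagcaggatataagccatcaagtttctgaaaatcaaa
FUS3 (chrII:192151-192450, plus strand): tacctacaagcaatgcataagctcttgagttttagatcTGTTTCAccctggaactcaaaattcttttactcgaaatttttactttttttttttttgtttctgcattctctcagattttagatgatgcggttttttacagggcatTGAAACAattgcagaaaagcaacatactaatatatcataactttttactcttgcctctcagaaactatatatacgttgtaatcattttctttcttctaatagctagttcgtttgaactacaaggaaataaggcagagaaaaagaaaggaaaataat
The copy of AGA1 starts 202 bases before the start codon and that of SST2 245 bases before it. The copies of FUS1 start 187 and 160 bases before the start codon, and those of FUS3 262 and 156 bases before it.

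Levels are FPKM, which count fragments relative to the length of the gene and to a library total whose definition is unknown here. Levels of different genes are compared as deposited, and bias by gene length or RNA recovery was not tested. Read totals were not used here. From the smallest steps between the values of long, low genes, each value of the 10 genes was estimated to stand on 635 to 17882 fragments, a rough figure that rests on 5 to 7 genes per library. The median over gene rows was 48.6 to 57.6 FPKM in the 4 libraries. The 413 rows without a gene ID held 87.2% of the summed FPKM of CR B and 27.4% to 34.0% of that of each other library. Results are therefore also given without CR B. All 10 rows lay at the position of their R64 gene, each a single coding exon that began with ATG and ended with a stop codon. Only the STE18 row overlapped another gene row, YJR087W, by its last base. Of the 32-nt stretches of AGA1 96.1% were found once in the genome, and all of those of the other 9 genes.

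The cells carried the transcripts of mating type a. All 7 a-cell markers (the receptor gene STE2, the a-factor genes MFA1 and MFA2, the a-factor exporter gene STE6, BAR1, AGA2 and ASG7) were detected in every library, with a summed level of 60761 and 63903 FPKM in NR and 12987 and 7185 FPKM in CR, most of it MFA2. The 6 alpha-cell markers summed to 46.6 to 62.5 FPKM over the 4 libraries, and MATALPHA1 and MATALPHA2 were listed at 0, although none of their stretches is unique in the genome. STE3, the receptor gene of alpha cells, lay at 4.38 to 8.36 FPKM against 93.2 to 326 FPKM for STE2. The alpha-cell markers were not all near 0. MF(ALPHA)2 held the largest part of their sum, at 24.3 to 35.6 FPKM, and SAG1 lay at 13.1 to 17.3 FPKM. None of the 4 tested alpha-cell markers passed the test described next (1, STE3, at an unadjusted p under 0.05). In bulk RNA, fewer cells that express a gene and less RNA per cell cannot be told apart.

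In CR, 5 of the 10 genes fell, namely AGA1, GPA1, SST2, FAR1 and STE12, and none rose (0 at an unadjusted p under 0.05). The falls ran from 2.35-fold for STE12 to 7.38-fold for AGA1. STE4, STE18, STE5, FUS3 and FUS1 did not pass the test, with log2 folds from -0.35 to 0.15. Values were tested as log2(FPKM + 1) with limma (two-sided), and a gene passed at a Benjamini-Hochberg adjusted p under 0.05 over the 6355 genes that averaged 1 FPKM or more. Over all tested genes 30.9% passed, 13.2% as lower and 17.7% as higher in CR, and the median log2 fold was 0.06, against -0.77 over the 10 genes. With libraries scaled to a common median the higher calls went from 57.4% of all calls to 44.9% and the median of all genes from 0.06 to -0.07, and the same 5 genes were lower. Both CR libraries lay below both NR libraries for 7 of the 10 genes and above them for 0, where all tested genes gave 33.8% and 39.2%. Of the 7 a-cell markers 4 fell and none rose (0 at an unadjusted p under 0.05), and both CR libraries lay below both NR libraries for all 7. The part of this in the falls of the 10 genes was not tested.

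**Figure D1:**
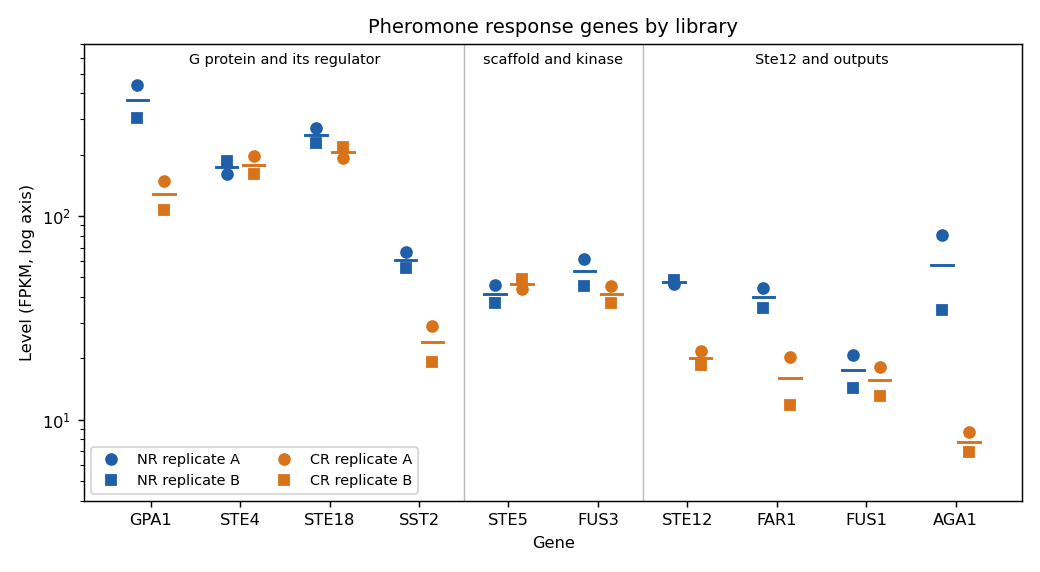
Level of each of the 10 genes in FPKM on a log axis, by library, with NR in blue, CR in orange, replicate A as circles, replicate B as squares and the mean of each condition as a bar. The CR points of GPA1, SST2, STE12, FAR1 and AGA1 lie well below the NR points, while those of STE4, STE5 and FUS1 overlap them.

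The number of calls depended on the NR libraries. Leaving out NR A ended all 5 calls, with adjusted p from 0.079 for AGA1 to 0.22 for FAR1, and leaving out NR B ended all but that of AGA1 (adjusted p = 0.030). With either left out, the residual spread is that of the CR replicates, whose SD, taken from the A to B differences over all tested genes, was 0.45 on the log2 scale against 0.27 for the NR replicates. With CR A or CR B left out, the residual spread is that of the closer NR replicates, and calls come more easily. Only log2 folds are therefore given here for these fits. Without CR A they were -2.76 for AGA1, -1.76 for GPA1, -1.62 for SST2, -1.66 for FAR1 and -1.31 for STE12. Without CR B, in which rows without a gene ID held most of the FPKM, the log2 folds were -2.48 for AGA1, -1.29 for GPA1, -1.05 for SST2, -0.93 for FAR1 and -1.08 for STE12. Both replicates are labelled biological, but 2 libraries against 2 cannot go below a permutation p of 0.333 for a single value.

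Of the G protein, the Gα gene fell while the Gβ and Gγ genes did not pass the test. GPA1 (YHR005C, chromosome VIII, 113499 to 114917, minus strand, R64) stood at 441 and 302 FPKM in NR A and B and at 149 and 107 FPKM in CR A and B. Both CR values were less than the lower NR value, and the mean went from 371 ± 97.7 to 128 ± 29.7 FPKM (SD, n = 2 per condition here and below). The fall was 2.91-fold, with a log2 fold of -1.53 (SE 0.29, limma adjusted p = 0.020). STE4, the Gβ gene (YOR212W, XV, 742910 to 744181, plus strand), stood at 161.5 and 187 FPKM in NR and at 196 and 161 FPKM in CR. The conditions overlapped, and the log2 fold was 0.03 (95% interval -0.52 to 0.59, limma adjusted p = 0.92) as deposited, -0.10 at a common median and -0.12 after quantile normalization. STE18, the Gγ gene (YJR086W, X, 586068 to 586400, plus strand), stood at 271 and 229 FPKM in NR and at 194 and 218 FPKM in CR. Its CR values were both slightly lower than its NR values, and the log2 fold of -0.28 did not pass (95% interval -0.82 to 0.27, limma adjusted p = 0.36).

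The order of the subunit transcripts differed between the conditions. Within each NR library there was more GPA1 than STE4 transcript, by a ratio of 2.73 in A and 1.62 in B, and within each CR library less, at 0.758 and 0.663. The ratio of GPA1 to STE18 was 1.62 and 1.32 in NR and 0.769 and 0.490 in CR. Both ratios were over 1 in both NR libraries and under 1 in both CR libraries, and being taken within a library they do not depend on its scaling. The exact two-sided permutation p of each was 0.333, the smallest that 2 against 2 allows. The ratio of STE18 to STE4 was 1.68 and 1.23 in NR and 0.986 and 1.35 in CR, with overlap.

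SST2, whose product acts on Gpa1, fell with it. SST2 (YLR452C, XII, 1039270 to 1041366, minus strand) stood at 66.4 and 55.7 FPKM in NR and at 28.8 and 19.1 FPKM in CR, with no overlap. The mean went from 61.1 ± 7.59 to 24.0 ± 6.83 FPKM, a fall of 2.55-fold (log2 fold -1.34, SE 0.26, limma adjusted p = 0.021). Without the filter on low values it lost its call (limma adjusted p = 0.057), as it did without NR A or NR B. Over the alternatives that kept all libraries the limma adjusted p ran from 0.010 to 0.057. The ratio of SST2 to GPA1 transcript was 0.151 and 0.184 in NR and 0.193 and 0.179 in CR, so it overlapped between the conditions.

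**Figure D2:**
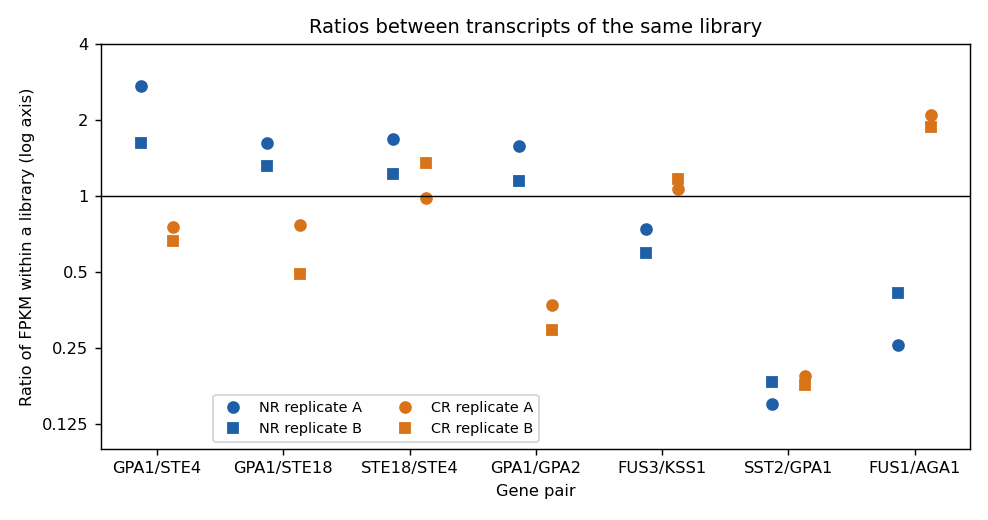
Ratio of the FPKM of 2 genes within each library on a log axis, with NR in blue, CR in orange, replicate A as circles and replicate B as squares. GPA1/STE4 and GPA1/STE18 lie above 1 in NR and below 1 in CR, GPA1/GPA2 and FUS1/AGA1 do not overlap between the conditions, and SST2/GPA1 lies between 0.151 and 0.193 in all 4 libraries.

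Neither the scaffold nor the kinase gene passed the test. STE5 (YDR103W, IV, 658350 to 661103, plus strand), the scaffold that holds the kinases together, stood at 45.8 and 37.6 FPKM in NR and at 43.8 and 48.8 FPKM in CR. The values overlapped, with a log2 fold of 0.15 (95% interval -0.37 to 0.68, limma adjusted p = 0.59). FUS3 (YBL016W, II, 192451 to 193512, plus strand) stood at 61.7 and 45.5 FPKM in NR and at 45.5 and 37.4 FPKM in CR. The lower NR value and the higher CR value were nearly equal, 45.51 and 45.49 FPKM, and the log2 fold was -0.35 (95% interval -0.96 to 0.26, limma adjusted p = 0.30). KSS1 encodes the kinase most like Fus3, which also serves filamentous growth. It fell from 79.9 ± 4.98 to 37.3 ± 7.43 FPKM (log2 fold -1.09, SE 0.22, limma adjusted p = 0.022). The ratio of FUS3 to KSS1 was 0.739 and 0.596 in NR and 1.07 and 1.17 in CR, without overlap (exact two-sided permutation p = 0.333).

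STE12, which encodes the transcription factor at the end of the pathway, fell. STE12 (YHR084W, VIII, 274174 to 276240, plus strand) stood at 46.3 and 48.3 FPKM in NR and at 21.8 and 18.5 FPKM in CR. The replicates were close in both conditions, and the mean went from 47.3 ± 1.41 to 20.2 ± 2.38 FPKM. The fall was 2.35-fold, with a log2 fold of -1.20 (SE 0.20, limma adjusted p = 0.015). Among all tested genes 10.5% had a lower log2 fold.

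FAR1, which holds the G1 cyclin kinase in check and marks the site of the mating projection, fell as well. FAR1 (YJL157C, X, 123836 to 126328, minus strand) stood at 44.3 and 35.5 FPKM in NR and at 20.4 and 11.9 FPKM in CR. Both CR libraries were lower than both NR libraries, and CR B was the lower of the CR pair. The mean went from 39.9 ± 6.21 to 16.1 ± 6.0 FPKM, a fall of 2.48-fold (log2 fold -1.30, SE 0.31, limma adjusted p = 0.033). Without the filter on low values its call was lost (limma adjusted p = 0.079), as it was without NR A or NR B. Over the alternatives that kept all libraries the limma adjusted p ran from 0.013 to 0.079. Of the kinase and cyclin genes whose products Far1 binds, CDC28, CLN1, CLN2 and CLN3, 0 of 4 passed the test in limma, against 30.9% of all tested genes. At an unadjusted p under 0.05, 3 were lower and 0 higher. The median log2 fold of the 4 was -0.67, and both CR libraries lay below both NR libraries for 3. CLN2 averaged 33.8 ± 5.92 FPKM in the NR pair and 15.8 ± 7.62 FPKM in the CR pair (log2 fold -1.12, limma adjusted p = 0.071). CDC28 averaged 126 ± 10.2 FPKM in the NR pair and 81.7 ± 5.56 FPKM in the CR pair (limma adjusted p = 0.066), and CLN3 at 43.1 ± 3.62 and 26.2 ± 6.85 (limma adjusted p = 0.083). CLN1 was at 23.0 ± 5.64 and 29.2 ± 16.4 FPKM, with a log2 fold of 0.24 that was -0.35 without CR A and 0.82 without CR B. CDC28 and CLN3 passed as lower at a common median and after quantile normalization (limma adjusted p from 0.032 to 0.040).

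The adhesion gene AGA1 fell and the fusion gene FUS1 did not pass, though both hold a copy of TGAAACA in the searched window. AGA1 (YNR044W, XIV, 703699 to 705876, plus strand), the anchor of the a-cell agglutinin at the cell wall, stood at 80.7 and 34.5 FPKM in NR and at 8.67 and 6.95 FPKM in CR. The NR replicates lay far apart, and both were well above the CR values. The mean went from 57.6 ± 32.7 to 7.81 ± 1.22 FPKM, a fall of 7.38-fold (log2 fold -2.62, SE 0.43, limma adjusted p = 0.014), and 1.26% of tested genes had a lower log2 fold. Its log2 fold was -2.02 without NR A and -3.22 without NR B. AGA2, which encodes the binding subunit that Aga1 anchors, was at 546 and 340 FPKM in NR and 231 and 175 FPKM in CR. Its groups did not overlap, but it missed the threshold (log2 fold -1.09, limma adjusted p = 0.051). It passed as lower at a common median, after quantile normalization, with the replicate letter as a block and on rows that overlap no other. Its limma adjusted p in these fits ran from 0.026 to 0.042.

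FUS1 (YCL027W, III, 71803 to 73341, plus strand), a membrane protein gene of cell fusion often used to read out the pathway, stood at 20.8 and 14.3 FPKM in NR and at 18.2 and 13.03 FPKM in CR. The conditions overlapped, and the A library was the higher in each. The log2 fold was -0.15 (95% interval -0.89 to 0.58, limma adjusted p = 0.71), and it turned to 0.11 without NR A and 0.08 without CR B. The ratio of FUS1 to AGA1 was 0.258 and 0.413 in NR and 2.10 and 1.88 in CR, on different sides of 1 (exact two-sided permutation p = 0.333).

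**Figure D3:**
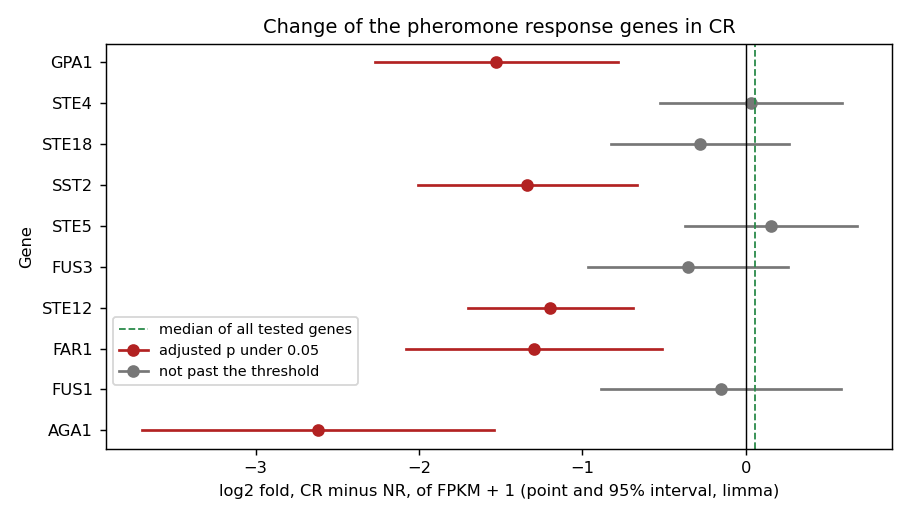
Log2 fold of CR against NR for each gene on the log2(FPKM + 1) scale, as a point with its 95% interval from limma, red where the adjusted p was under 0.05, and the median of all tested genes as a dashed line. The 5 red genes run from -2.62 for AGA1 to -1.20 for STE12, and the intervals of the 5 grey genes include 0.

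Genes with and without a copy of TGAAACA in the searched window were among those that fell. Other forms of the element and sites farther away were not searched. Of the 5 genes with a copy, SST2 and AGA1 fell, and of the 5 without, GPA1, STE12 and FAR1 fell. Over all genes with an R64 promoter, 12.8% of 399 tested genes with a copy were lower in CR and 13.5% of 5332 without one, and 14.0% and 18.5% were higher. These differences were not tested. The median log2 fold was -0.03 with a copy and 0.05 without. Of the 18 tested genes with 2 copies or more, 5 were lower and 2 higher.

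The levels formed an upper tier of the G protein genes and a lower tier of the others. In NR the order began with GPA1 at a mean of 371, STE18 at 250.3 and STE4 at 174 FPKM, each above the next in both libraries. SST2, AGA1, FUS3 and STE12 followed at means of 61.1 to 47.3 FPKM, each overlapping the next in this order, then STE5 and FAR1 at 41.7 and 39.9, which overlapped, and FUS1 last at 17.5 FPKM. In CR the order was STE18 (206 FPKM) and STE4 (179), which overlapped, then GPA1 (128), then STE5 (46.3) and FUS3 (41.4), which overlapped. SST2 (24.0), STE12 (20.2), FAR1 (16.1) and FUS1 (15.6) followed, each overlapping the next, and AGA1 was last at 7.81 FPKM. Within its library, AGA1 lay above 60.7% and 35.5% of tested genes in NR A and NR B and above 6.83% and 6.20% in CR A and CR B. GPA1 lay above 91.6% and 87.9% in NR and above 74.1% and 67.7% in CR.

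Most of the 10 genes were lower in the B than in the A library of the same condition, 8 of 10 in NR and 8 of 10 in CR. Among all tested genes 60.5% were lower in B in NR and 61.8% in CR, with a median log2 difference of -0.07 and -0.15. The widest gaps were those of AGA1 in NR (log2 difference -1.20) and FAR1 in CR (-0.73). The part of these gaps in the comparison was not tested beyond leaving out each library.

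Of 19 genes for pheromones, receptors and their processing 5 fell (26.3%, against 13.2% of all tested genes) and 1 rose (5.26%, against 17.7%), with a median log2 fold of -0.44. The lists overlap: of the genes that fell here, MFA1, MFA2, BAR1 and ASG7 are a-cell markers already counted above, and only STE14 is not. The a-factor genes MFA1 and MFA2 fell from 6814 ± 374 to 1885 ± 272 FPKM (limma adjusted p = 0.013) and from 54424 ± 2134 to 7708 ± 3657 FPKM (limma adjusted p = 0.015), on rows of only 111 and 117 nt. BAR1, whose product is the protease that cuts alpha-factor, fell from 169 ± 86.0 to 43.5 ± 21.7 FPKM (limma adjusted p = 0.039). STE14, which encodes the methyltransferase that modifies a-factor, fell 2.06-fold, and ASG7, a gene expressed in a cells, 2.26-fold. AFR1, whose product acts on the receptor and on the shape of the mating projection, rose from 90.0 ± 7.85 to 263 ± 28.9 FPKM (log2 fold 1.53, limma adjusted p = 0.0097). The alpha-factor receptor gene STE2 stood at 326 and 275 FPKM in NR and 225 and 93.2 FPKM in CR and did not pass (log2 fold -1.04, limma adjusted p = 0.13). Its log2 fold was -1.67 without CR A and -0.41 without CR B. RAM2 and KEX1, also abundant in this list, had log2 folds of -0.05 and -0.42 and did not pass, and that of RAM2 was 0.08 without NR A and 0.12 without CR B.

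In the kinase cascade and its regulators, 3 of 15 genes rose and 1, KSS1, fell, with a median log2 fold of 0.18. The share that rose, 20.0%, was near the 17.7% of all tested genes, and the share that fell, 6.67%, stood against 13.2%. STE7, which encodes the kinase that activates Fus3 and Kss1, rose from 10.6 ± 1.07 to 33.5 ± 1.01 FPKM (log2 fold 1.58, limma adjusted p = 0.0088), on a row that overlaps YDL158C and YDL159C-B. STE50, the gene for an adaptor of the kinase Ste11, rose 1.78-fold (limma adjusted p = 0.036), a call lost at a common median and after quantile normalization. PTP2, which encodes a phosphatase of Fus3 and of the osmotic stress kinase, rose from 9.83 ± 1.90 to 21.4 ± 3.28 FPKM (limma adjusted p = 0.032). CDC42, DIG1 and AKR1 were the most abundant genes of the list that did not pass, with log2 folds of -0.21, -0.50 and -0.16. That of AKR1 was 0.02 without CR B, and that of DIG1 was -0.74 without CR A and -0.27 without CR B. DIG1 encodes a repressor of Ste12.

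Of 21 other mating genes 5 fell (23.8%, against 13.2% of all tested genes) and 2 rose (9.52%, against 17.7%), with a median log2 fold of -0.23. FIG1, a membrane protein gene of mating, stood at 13.7 and 11.4 FPKM in NR and at 0.717 and 1.26 FPKM in CR, a fall of 12.8-fold (limma adjusted p = 0.0057). PRM7 fell from 26.8 ± 0.213 to 5.74 ± 1.33 FPKM, and PRM6 from 2.37 ± 0.756 to 0.321 ± 0.0439 FPKM on a row that overlaps YML047W-A. FUS2, another fusion gene, fell 1.94-fold (limma adjusted p = 0.043), and GIC2, a Cdc42 effector gene, 1.76-fold. PRM4 rose from 39.5 ± 1.03 to 168 ± 11.9 FPKM (limma adjusted p = 0.0045), and PRM8 2.41-fold, with 59.2% of its stretches unique. KAR4, AGA2 and CHS1 were the most abundant of the list that did not pass, with log2 folds of -0.65, -1.09 and 0.41. KAR4 passed as lower at a common median (limma adjusted p = 0.034) and after quantile normalization (limma adjusted p = 0.035). The log2 fold of CHS1 was 0.06 without CR A and 0.76 without CR B.

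The filamentous growth branch, which shares Ste12, had 1 of 7 genes lower and 1 higher, 14.3% each, near the 13.2% and 17.7% of all tested genes. FLO11, the flocculin gene (named MUC1 in the table), fell from 7.69 ± 0.653 to 2.11 ± 0.213 FPKM (limma adjusted p = 0.017), with 63.8% of its stretches unique. OPY2, a membrane anchor gene for Ste50, rose from 81.8 ± 14.3 to 234 ± 22.4 FPKM (limma adjusted p = 0.012), on a row that overlaps YPR076W. TEC1, which encodes the partner of Ste12 at filamentation genes, was at 52.0 ± 0.257 and 62.9 ± 2.42 FPKM and did not pass (limma adjusted p = 0.30). SHO1 and PGU1 did not pass, with log2 folds of -0.38 and 0.12, the latter -0.0017 at a common median. The log2 fold of SHO1 was -0.72 without CR A and -0.04 without CR B.

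Yeast has another Gα gene, GPA2, which serves the glucose receptor Gpr1 and not mating. GPA2 stood at 279 and 263 FPKM in NR and at 399.9 and 360.5 FPKM in CR and did not pass (log2 fold 0.49, limma adjusted p = 0.13), while RGS2, the gene for its regulator, rose 3.27-fold from 19.5 ± 2.90 FPKM (limma adjusted p = 0.0094). GPR1 did not pass (log2 fold 0.71, limma adjusted p = 0.0997), and its log2 fold was 0.40 without CR A and 1.01 without CR B. ASC1, a ribosome-bound Gβ-like gene, fell 2.46-fold (limma adjusted p = 0.043), a call lost with the replicate letter as a block (0.064). The ratio of GPA1 to GPA2 transcript was 1.58 and 1.15 in NR and 0.372 and 0.296 in CR, without overlap (exact two-sided permutation p = 0.333). The regulator genes of the mating and the glucose G protein, SST2 and RGS2, passed the test in opposite directions.

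**Figure D4:**
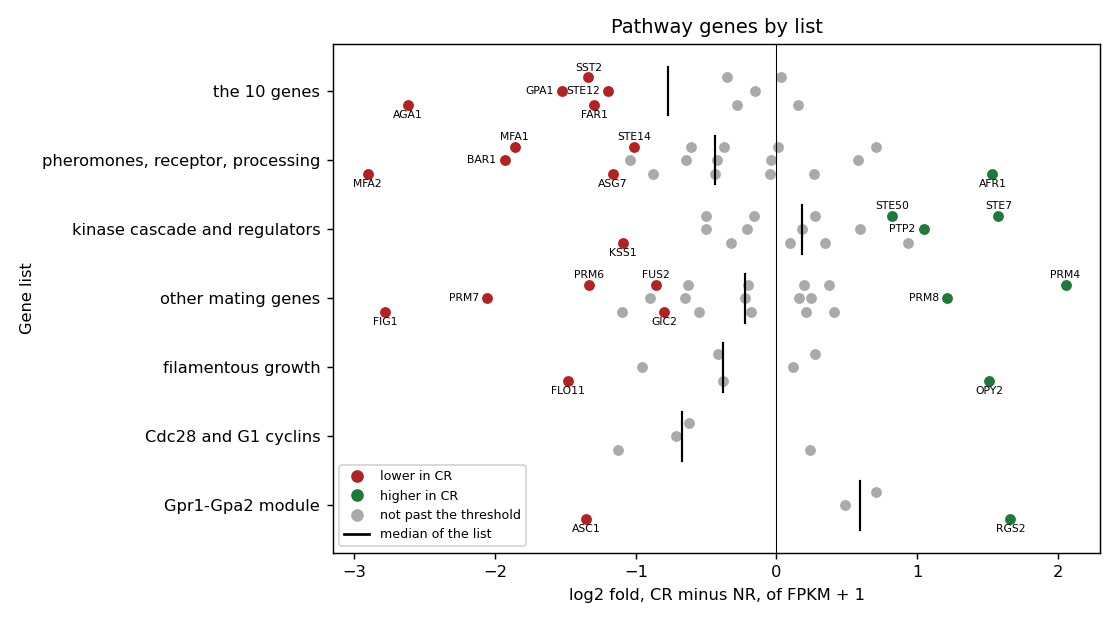
Log2 fold of CR against NR of every tested gene in 7 lists, 1 point per gene, red for lower, green for higher and grey for genes not past the threshold, with the median of each list as a black bar. Among these 7 lists the 10 genes have the lowest median, -0.77, and the Gpr1-Gpa2 module, with 4 genes, the highest, 0.60. The 7 a-cell markers, not drawn as a list of their own, had a lower median, -1.17.

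The calls in these other lists depended on the NR libraries as well. Of the 21 genes that passed, 0 passed without NR A and only FIG1 passed without NR B. Without the filter on low values MFA2, BAR1, KSS1, PTP2, PRM8, GIC2 and ASC1 did not pass. FUS2, PRM6 and ASC1 lost their calls with the replicate letter as a block, FUS2 also after quantile normalization and PRM6 with a pseudocount of 5.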

How the data were processed

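Total RNA of 4 libraries, 2 NR and 2 CR, was analysed. Per the labels' protocols, a QIAGEN miRNeasy kit served for extraction, an Ambion reagent for fragmentation and an Illumina small RNA kit for the libraries. The submitters' processing notes name the tools CASAVA 1.8.2, Cufflinks 2.0.2 and Bowtie and the build sacCer2. Their settings, strand use and the treatment of reads with several matches are unknown here. The values that the authors deposited are FPKM, 1 column per library in 1 table, and 0 value columns were left unmatched. Of the 6720 gene rows 6025 had an ID in R64. After the start was raised by 1, 5989 of them sat exactly at the R64 gene, and coordinates are therefore those of R64 and 1-based.

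The 6355 genes that averaged 1 FPKM or more were fitted as log2(FPKM + 1) with limma 3.58.1 (R 4.3.3), with an intensity trend and no covariate. A log2 fold on this scale understates the change of low genes, while values written as "-fold" are ratios of mean FPKM. All 10 genes passed the filter. The fit was first tested on simulated data with the same spread in all genes and both conditions, unlike the replicates here. Its smallest planted change was larger than the log2 falls of GPA1, SST2, FAR1 and STE12, so it does not vouch for those calls. Named genes were the 10 genes and, of each other list, those that passed and the 3 most abundant that did not, with CLN2 added. The genes and lists were chosen with earlier results of these data known. Depth is unknown beyond the fragment estimate, for which values of 0.015 to 0.04 FPKM kb in genes over 1.5 kb were read as 1 fragment. The alternatives tried are given in the closing section. Tables and plots were made with Python 3.11.15, pandas 2.3.3, NumPy 2.4.6 and matplotlib 3.10.9.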

Additional observations from a re-analysis of the deposited data

How the results depend on the processing

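The pseudocount (0.1 or 5), the filter (none, or 10 FPKM), the scaling (common median or quantile), the block, the trend, the exclusion of overlapping rows and each library were varied. With 5 of the 10 genes lower as reported, 3 were lower without the filter on low values, where 464 of all genes were lower against 836, and 5 under each of the other alternatives that kept all libraries. Leaving out a library gave 0 to 5 of them lower and, over all genes, 72 to 1632 higher and 44 to 1656 lower. With the replicate block 5 of the 10 genes and 986 of all genes were lower and 1150 higher. The letters share only a name in the labels, and the correlation over genes of the A to B differences in NR and CR was 0.08. The block ended the calls of FUS2, PRM6 and ASC1 and added that of AGA2. Of the named genes that had not passed, AGA2, KAR4, CDC28 and CLN3 gained calls at a common median and after quantile normalization. AGA2 also gained a call on non-overlapping rows. Calls gained with a CR library left out are not listed, since calls come more easily in those fits. Log2 folds that changed sign belonged to genes that had not passed. STE4 was at -0.10 at a common median, -0.12 after quantile normalization and -0.11 to 0.18 with a library left out, and PGU1 at -0.0017 at a common median and -0.10 to 0.34. With a library left out FUS1 ran from -0.41 to 0.11, RAM2 from -0.21 to 0.12, AKR1 from -0.34 to 0.023 and CLN1 from -0.35 to 0.82. Of the 21 genes of the other lists that passed, FIG1 passed without NR B but not without NR A, and each of the other 20 lost its call without NR A and without NR B.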

Other observations

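Of 4 genes expressed in haploid cells (HO, RME1, AXL1 and NEJ1) 1 passed the test, as lower (25%, against 13.2% of all tested genes). At an unadjusted p under 0.05 in limma, 2 were higher and 2 lower. HO, the gene for the mating type switching endonuclease, stood at 40.6 and 24.2 FPKM in NR and at 12.9 and 5.51 FPKM in CR and fell (log2 fold -1.77, limma adjusted p = 0.038). RME1, which encodes a repressor of meiosis, averaged 104 ± 5.09 FPKM in the NR pair and 161 ± 6.02 FPKM in the CR pair and missed the threshold (limma adjusted p = 0.061). The 8 meiosis markers, IME1 and NDT80 among them, summed to 76.4 to 84.8 FPKM in the 4 libraries, and 0 passed in limma (1, IME2, at an unadjusted p under 0.05).

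For each gene that fell, the tested gene with the nearest profile was looked up, by the distance between log2(FPKM + 1) values centred on the gene's own mean. It was LSG1 for GPA1 (distance 0.031), CYS4 for STE12 (0.026), BSC1 for FAR1 (0.056), DAS2 for SST2 (0.065) and ESF2 for AGA1 (0.27). Likeness over 4 libraries is a description of these values.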
